A study of Mus musculus with 6 samples.

Results

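Interferon-stimulated genes are the genes that cells switch on when they sense interferon. A list of 46 such genes, matched by symbol, was followed among the 30409 genes of the deposited tables. All 46 were found. They comprise 6 regulators of the response, 7 sensors of foreign nucleic acid, 15 antiviral effectors, 9 genes in the group of interferon-inducible GTPases and the peptide transporter Tap1, and 9 other interferon-stimulated genes. The choice used gene symbols and no measured value, though earlier results of these data were known.

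RNA had been sequenced from C57BL/6 mouse bone marrow cells sorted, per the labels, as long-term (LT) haematopoietic stem cells (HSCs) by the gate Lineage−Sca1+cKit+CD34−Flk2−. There were 4 libraries: Twist1 conditional knockout (cKO) 12 days after irradiation, wild type (WT) 12 days after irradiation, Twist1 cKO at steady state, and WT at steady state. Each group held 1 library, so the differences below rest on single libraries, with no replicate check and no test. The TWIST1 protein is a transcription factor of the basic helix-loop-helix family. The sources used here do not give the Cre driver of the deletion, how it was induced, the radiation dose, the age of the mice or whether animals were pooled. Chromatin accessibility (ATAC-seq, 2 samples) was not analysed here. Levels are FPKM, reads scaled by the authors to gene length and library size. Differences are differences of log2(FPKM + 1), which understate the change of genes at low levels. Folds are ratios of FPKM, with an exact interval at the 95% level in brackets that covers counting error only.

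Type I interferon binds the receptor IFNAR1–IFNAR2, and the kinases JAK1 and TYK2 then activate the complex ISGF3, which contains STAT2 and IRF9 and binds the interferon-stimulated response element (ISRE) of target promoters. Interferon gamma acts through its own receptor and the gamma-activated site (GAS) of its target promoters, and switches on IRF1 among others. IRF7 amplifies production of type I interferon, and USP18 damps the receptor. In the bone marrow, both interferons are known to push dormant stem cells into cycle, and stem cells keep a baseline set of these genes switched on without infection.

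Both elements can be read in the promoters of the members. RefSeq promoter windows (GRCm38.p6, from 250 bases before to 50 bases after each start) were found for 35 of the 46 members, with 44 windows in all. The members without one were Usp18, Dhx58, Zbp1, Oas2, Mx1, Mx2, Iigp1, Ifi27l2a, Parp9, Parp14 and Ly6e. The ISRE core, searched on both strands as GAAA, any 2 bases and GAAA again, was in the windows of 18 of the 35 members (51.4%), against 1079 of 27025 genes with a window (3.99%). The GAS, searched as TTCNNNGAA, which reads the same on both strands, was in 12 members (34.3%), against 9.55% of all genes, and both were in 6 members (17.1%), against 0.614%. Such a match is a run of letters and not a measured binding site. The stretches below show the 160 bases that end at the start site, 5′ to 3′ on the strand of the gene, for members whose levels are described later, with the matches in capitals. The genes shown were chosen by hand and each holds a match, so they do not tie a match to a direction of change. Irf7, Irf9, Oasl1, Oasl2, Ifi44, Ifi47 and Tap1, also described later, had a window with neither match. The first 4 stretches belong to genes that were low in irradiated cells.
Irf1: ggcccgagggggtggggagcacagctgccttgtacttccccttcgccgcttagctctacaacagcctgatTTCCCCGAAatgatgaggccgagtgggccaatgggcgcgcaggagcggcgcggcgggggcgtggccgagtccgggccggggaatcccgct
Gbp2: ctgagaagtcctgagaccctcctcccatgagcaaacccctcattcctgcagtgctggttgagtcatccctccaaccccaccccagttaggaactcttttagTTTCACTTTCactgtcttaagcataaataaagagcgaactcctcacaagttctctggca
Igtp: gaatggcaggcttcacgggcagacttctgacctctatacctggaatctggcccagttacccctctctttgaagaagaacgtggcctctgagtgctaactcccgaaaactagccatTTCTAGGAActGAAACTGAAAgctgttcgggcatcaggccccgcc
Irgm2: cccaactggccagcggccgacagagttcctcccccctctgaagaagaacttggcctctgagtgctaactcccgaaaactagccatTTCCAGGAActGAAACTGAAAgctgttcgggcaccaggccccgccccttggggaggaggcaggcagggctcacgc

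In these stretches the capitals mark a GAS in Irf1 (chr11:53769854-53770013 on the plus strand), an ISRE in Gbp2 (chr3:142620503-142620662 on the plus strand), and a GAS followed by an ISRE in Igtp (chr11:58199396-58199555 on the plus strand) and Irgm2 (chr11:58214817-58214976 on the plus strand). The Irf1 match begins 90 bases before the start and the Gbp2 match 59 bases before it. In Igtp and in Irgm2 the GAS and the ISRE lie 2 bases apart. The windows of these adjacent genes share an identical run of 61 bases that lies downstream of the ISRE and extends past the stretch printed for Igtp. The next 3 stretches belong to antiviral genes that were high in irradiated cKO cells.
Isg15: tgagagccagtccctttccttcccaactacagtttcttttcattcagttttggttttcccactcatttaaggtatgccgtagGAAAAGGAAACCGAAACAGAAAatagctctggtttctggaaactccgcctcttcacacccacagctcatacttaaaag
Ifit3: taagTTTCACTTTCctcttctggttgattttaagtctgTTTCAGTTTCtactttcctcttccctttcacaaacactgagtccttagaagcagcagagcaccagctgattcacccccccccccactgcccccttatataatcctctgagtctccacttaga
Rsad2: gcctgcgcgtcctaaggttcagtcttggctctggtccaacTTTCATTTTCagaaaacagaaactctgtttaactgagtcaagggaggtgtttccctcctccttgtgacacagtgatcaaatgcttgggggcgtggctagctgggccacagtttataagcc

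Here the capitals mark overlapping ISRE matches 78, 72 and 66 bases before the start of Isg15 (chr4:156200819-156200978 on the minus strand), ISRE matches 156 and 122 bases before that of Ifit3 (chr19:34583369-34583528 on the plus strand), and 1 ISRE match 120 bases before that of Rsad2 (chr12:26456453-26456612 on the minus strand). By role, an ISRE was in 6 of 8 genes with a window in the GTPase and Tap1 group (75%), and 3 of these 8 also held a GAS. Among the antiviral effectors it was in 6 of 12 (50%), among the sensors in 3 of 5, among the regulators in 2 of 5 and among the other members in 1 of 5.

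The libraries were checked before the members were read. Reads recovered in genes numbered between 20349804 and 25100818 per library. Twist1 had 0 reads in irradiated cKO (3 reads would give 0.0792 FPKM), 5 in irradiated WT, 2 in steady-state cKO and 6 in steady-state WT, so its level does not check the genotype labels. Most transcripts that mark LT-HSCs were lower in the irradiated libraries, and 7 of 15 in irradiated cKO and 6 of 15 in irradiated WT still reached 1 FPKM. Among those far lower, Hlf, which encodes a transcription factor of stem cells, had 0.102 FPKM in irradiated cKO and 0.0608 FPKM in irradiated WT, against 17.7 FPKM in steady-state cKO and 17.4 FPKM in steady-state WT. Of 14 LT-HSC markers at a mean of 1 FPKM or more, 12 were at least 2-fold lower after irradiation in cKO, against 21.3% of all genes. In WT 12 were, against 18.8%. All 15 listed markers reached 1 FPKM in each steady-state library, and some, such as Hlf, passed the mean only through those libraries. Gfi1b, which erythroid cells also express, was the 1 marker at least 2-fold higher in WT. All 13 erythroid markers were at least 2-fold higher after irradiation in WT, against 14.9% of all genes, and 12 of 13 in cKO, against 9.51%. The irradiated libraries are therefore called irradiated cells below, not stem cells. Steady-state libraries held markers of other cells too. B and plasma cell markers summed to 3217 FPKM in steady-state cKO and 5732 FPKM in steady-state WT. LT-HSC markers summed to 768 FPKM in steady-state cKO and 881 FPKM in steady-state WT. The Y-linked gene Ddx3y had 0.0164 FPKM in irradiated cKO and 0.0521 FPKM in irradiated WT, against 12.4 FPKM in steady-state cKO and 10.2 FPKM in steady-state WT. The sex-linked split of the libraries thus follows irradiation, and its part in the differences between irradiated and steady-state libraries cannot be told apart from that of irradiation. In bulk RNA of this kind, fewer cells of a type and less RNA per cell cannot be told apart either.

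Members spanned a wide range of levels. The highest was Ly6e, a GPI-anchored surface protein, at 298 FPKM in irradiated cKO and 323 FPKM in irradiated WT, against 439 FPKM in steady-state cKO and 533 FPKM in steady-state WT. Next came Bst2 (tetherin, which holds budding virions to the cell surface), with 193 FPKM in irradiated cKO and 207 FPKM in irradiated WT, against 126 FPKM in steady-state cKO and 166 FPKM in steady-state WT. Together these 2 genes made up between 49.0% and 54.4% of the summed level of the members in each library. At the other end, 5 members had a mean under 1 FPKM over the 4 libraries and were left out of the counts: Oas2, Oas3, Mx1, Mx2 and Parp14. Of the 41 kept, 39 had at least 1 FPKM in every library. Ifi44 and Ifih1 did not, and were kept through the libraries in which they were higher. The median of the 41 was 5.99 FPKM in irradiated cKO and 5.55 FPKM in irradiated WT, against 10.1 FPKM in steady-state cKO and 9.68 FPKM in steady-state WT. The median of all 11505 genes kept was 4.96, 5.77, 7.23 and 7.15 FPKM in the same libraries. Interferon-stimulated genes thus stood above the typical gene at steady state in both genotypes, and the median member of irradiated WT stood just below it.

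**Figure D1:**
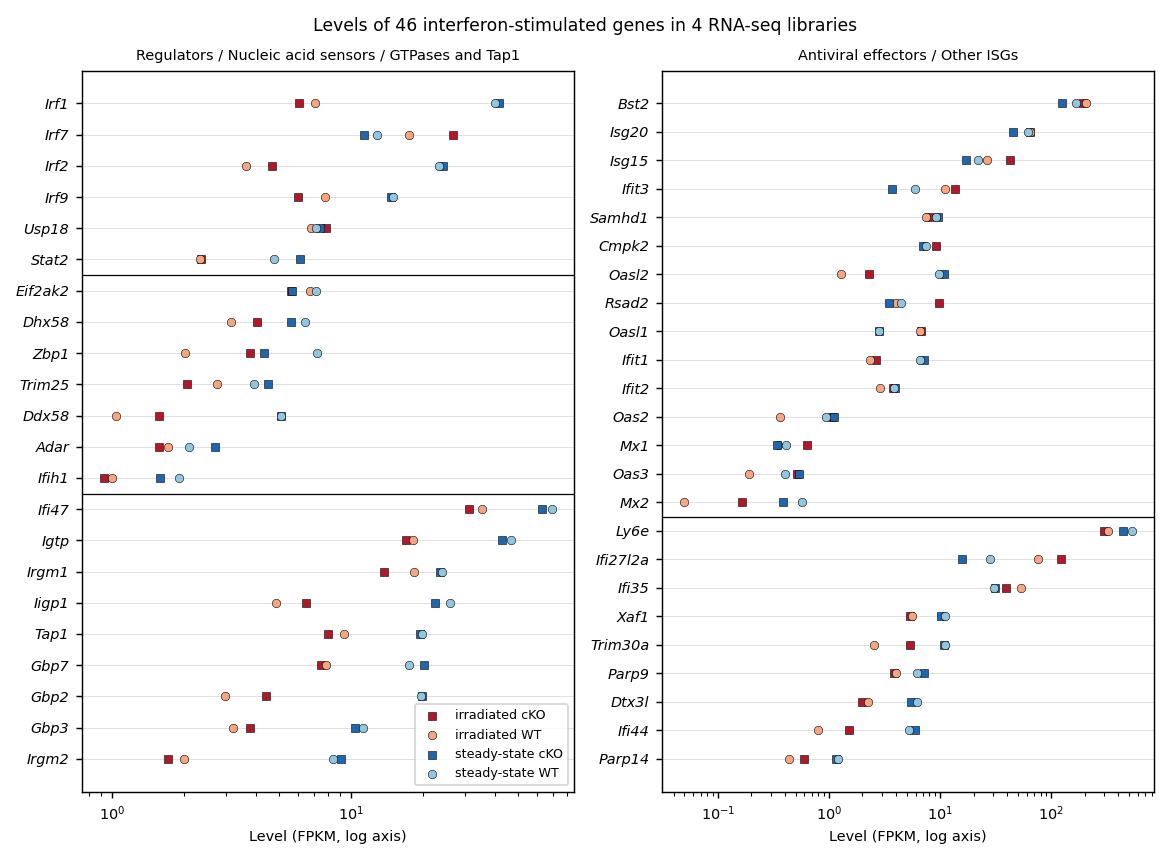
Levels of the 46 interferon-stimulated genes (FPKM, log axis) in the 4 libraries, 1 point per library, grouped by role. The genes of the GTPase and Tap1 group lie lower in both irradiated libraries than in both steady-state libraries (for Irgm1 in WT this turned with the scaling), whereas Irf7, Isg15, Ifit3 and Ifi27l2a lie highest in irradiated cKO.

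The first question was how the members stood 12 days after irradiation relative to steady state. Most were lower, led by Irf1, Irf2, Oasl2 and the guanylate-binding and immunity-related GTPases, while a smaller set that includes Ifi27l2a, Ifit3, Irf7 and Oasl1 was higher. In cKO, 16 of the 41 members were at least 2-fold lower (39.0%), against 21.3% of all genes, and 6 were at least 2-fold higher, against 9.51% of all genes. In WT, 16 were at least 2-fold lower (39.0%), against 18.8% of all genes, and 1 was at least 2-fold higher, against 14.9%. The same 14 members were among the 16 lower ones of each genotype. Irf9 and Stat2 were past 2-fold in cKO and not in WT, and Trim30a and Zbp1 in WT and not in cKO. At 1.5-fold, 22 members were lower in irradiated cKO, against 35.7% of all genes, and 7 were higher, against 18.2%. In irradiated WT, 22 were lower at 1.5-fold, against 29.6% of all genes, and 4 were higher, against 27.8%. Genotypes were not tested against each other on these counts. The median difference of the 41 was −0.76 in cKO, against −0.27 over all genes, and −0.79 in WT, against −0.01 over all genes. Over 7 other scalings, pseudocounts and centrings, the members' median less that of all genes ran between −0.57 and −0.39 in cKO and between −0.92 and −0.48 in WT. A change of scale or centring nearly cancels in this value, so these settings could hardly move it. The pseudocounts of 0.1 and 5 gave the ends of both ranges. With a minimum of 5 FPKM in the higher library in place of the mean, the members' median less that of all genes was −0.66 in cKO and −1.09 in WT.

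**Figure D2:**
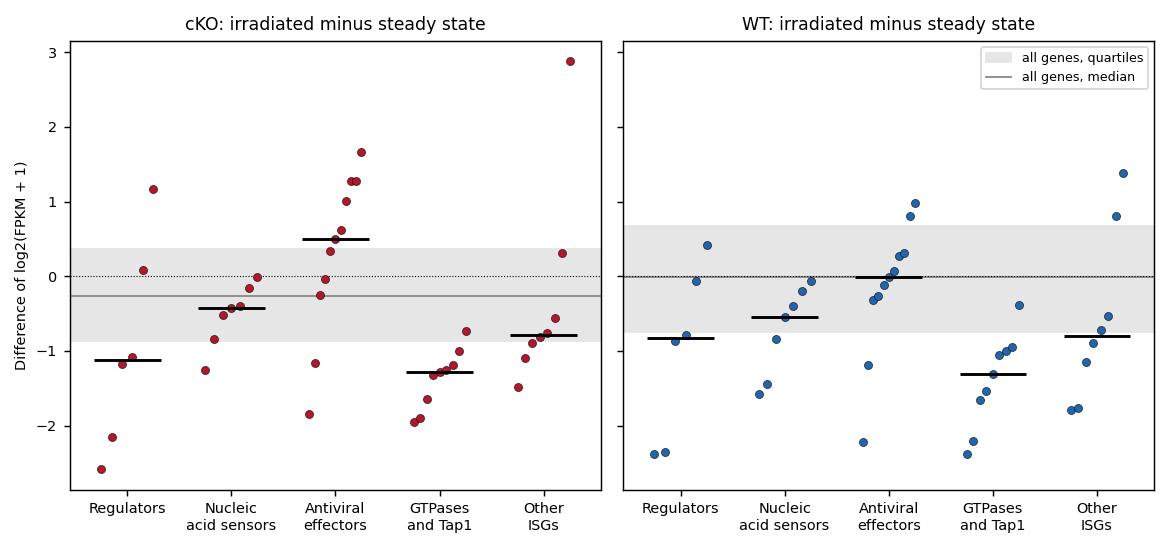
Difference between irradiated and steady-state cells (log2(FPKM + 1)) for the 41 kept members by role, in cKO (left) and WT (right). Points are genes, bars are role medians, and the grey band spans the quartiles of all 11505 genes: every gene of the GTPase and Tap1 group is below the median of all genes in both panels.

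Among the regulators, Irf1 and Irf2 showed the widest gaps. Irf1 (chr11:53770014-53778374), a transcription factor that interferon gamma induces early, had 6.08 FPKM (567 reads) in irradiated cKO and 7.05 FPKM (621 reads) in irradiated WT, against 41.4 FPKM (4157 reads) in steady-state cKO and 40.2 FPKM (4157 reads) in steady-state WT. The 2 steady-state libraries lay close together and both irradiated ones far below: Irf1 was 6.81-fold (6.24 to 7.45) lower in cKO and 5.69-fold (5.23 to 6.21) lower in WT. Irf2, which competes with IRF1 for the same sites, had 4.66 FPKM in irradiated cKO and 3.65 FPKM in irradiated WT, against 24.1 FPKM in steady-state cKO and 23.3 FPKM in steady-state WT. It was 5.17-fold (4.63 to 5.79) lower in cKO and 6.38-fold (5.62 to 7.26) lower in WT.

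The genes of the ISGF3 partners IRF9 and STAT2 were lower too. Irf9 had 5.99 FPKM in irradiated cKO and 7.76 FPKM in irradiated WT, against 14.7 FPKM in steady-state cKO and 14.9 FPKM in steady-state WT, a 2.46-fold (2.26 to 2.67) and a 1.93-fold (1.78 to 2.08) lower level in irradiated cKO and irradiated WT. For Stat2, levels were 2.36 FPKM in irradiated cKO and 2.34 FPKM in irradiated WT, against 6.09 FPKM in steady-state cKO and 4.76 FPKM in steady-state WT. Irf7 went the other way. It had 26.7 FPKM (1888 reads) in irradiated cKO and 17.4 FPKM (1163 reads) in irradiated WT, against 11.3 FPKM (864 reads) in steady-state cKO and 12.8 FPKM (1008 reads) in steady-state WT. Irf7 was 2.35-fold (2.17 to 2.55) higher after irradiation in cKO and 1.36-fold (1.25 to 1.48) higher in WT. The remaining regulator, Usp18, which removes ISG15 from proteins and damps IFNAR2, lay between 6.81 and 7.87 FPKM in all 4 libraries.

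The sensors were mostly lower after irradiation, with medians of −0.43 in cKO and −0.54 in WT. Ddx58 encodes RIG-I, a cytosolic sensor of viral RNA ends. It had 1.57 FPKM in irradiated cKO and 1.04 FPKM in irradiated WT, against 5.11 FPKM in steady-state cKO and 5.08 FPKM in steady-state WT. It was 3.26-fold (2.84 to 3.76) lower in cKO and 4.86-fold (4.11 to 5.78) lower in WT. Zbp1, a sensor of Z-form nucleic acid that can trigger necroptosis, had 3.77 FPKM (312 reads) in irradiated cKO and 2.02 FPKM (158 reads) in irradiated WT, against 4.32 FPKM (385 reads) in steady-state cKO and 7.22 FPKM (663 reads) in steady-state WT. The gap was 3.57-fold (3.0 to 4.27) in WT. In cKO the interval of the ratio held equal levels (1.15-fold lower, 0.985 to 1.34), and the sign of the cKO difference turned with the scaling. Dhx58, which encodes LGP2, a helicase that tunes RIG-I and MDA5, had 4.04 FPKM in irradiated cKO and 3.15 FPKM in irradiated WT, against 5.63 FPKM in steady-state cKO and 6.40 FPKM in steady-state WT. In cKO its direction turned with the scaling. The most abundant sensor, Eif2ak2 (the kinase PKR, which stops translation on double-stranded RNA), had 5.62 FPKM in irradiated cKO and 6.76 FPKM in irradiated WT, against 5.65 FPKM in steady-state cKO and 7.10 FPKM in steady-state WT, and its direction also turned with the scaling in both genotypes. The other sensors, Ifih1 (MDA5), Adar and Trim25, lay between 0.930 and 4.48 FPKM, with differences between −0.84 and −0.19, and the WT direction of Adar and Trim25 turned with the scaling.

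Antiviral effectors held both lower and higher members. Of the 11 kept, 4 were past 2-fold upward in irradiated cKO (36.4%, against 9.51% of all genes) and 0 in irradiated WT (against 14.9%). In each genotype 2 were past 2-fold downward (18.2%), no more than the 21.3% of all genes in cKO and the 18.8% in WT. Their medians were 0.50 in cKO and −0.01 in WT. The lower ones included Oasl2, an oligoadenylate synthetase-like protein, with 2.29 FPKM in irradiated cKO and 1.29 FPKM in irradiated WT, against 10.8 FPKM in steady-state cKO and 9.68 FPKM in steady-state WT. Oasl2 was 4.72-fold (4.2 to 5.32) lower in cKO and 7.51-fold (6.44 to 8.80) lower in WT, the widest fold among the 41 members in WT. Its neighbour Oasl1, which restrains translation of Irf7, lies 10.9 kb away on chromosome 5 and went the opposite way. Oasl1 had 6.69 FPKM in irradiated cKO and 6.53 FPKM in irradiated WT, against 2.84 FPKM in steady-state cKO and 2.83 FPKM in steady-state WT, or 2.35-fold (1.98 to 2.81) higher in cKO and 2.31-fold (1.93 to 2.76) higher in WT.

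Opposite directions also stood side by side in the Ifit cluster on chromosome 19, whose proteins bind viral RNA. Ifit1 had 2.67 FPKM in irradiated cKO and 2.33 FPKM in irradiated WT, against 7.16 FPKM in steady-state cKO and 6.61 FPKM in steady-state WT. Ifit3, which lies 51.9 kb away, had 13.7 FPKM in irradiated cKO and 11.1 FPKM in irradiated WT, against 3.66 FPKM in steady-state cKO and 5.92 FPKM in steady-state WT. Ifit1 was thus 2.69-fold (2.25 to 3.22) lower in cKO and 2.84-fold (2.34 to 3.46) lower in WT, and Ifit3 was 3.76-fold (3.15 to 4.50) higher in cKO and 1.88-fold (1.61 to 2.20) higher in WT. Ifit2, 6.58 kb from Ifit3, lay between 2.89 and 3.93 FPKM in all 4 libraries. The annotated span of Ifit1 lies within that of Ifit1bl1, and Ifit3 has a close paralog, Ifit3b. The sources used here do not say how the authors' counting divided such reads, so these levels are uncertain.

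Isg15, the ubiquitin-like modifier, had 42.7 FPKM in irradiated cKO and 26.5 FPKM in irradiated WT, against 17 FPKM in steady-state cKO and 21.8 FPKM in steady-state WT. It was 2.51-fold (2.20 to 2.86) higher in cKO, while its WT difference of 0.27 turned with the scaling. Rsad2 (viperin, a radical SAM enzyme that makes a chain-terminating nucleotide) had 9.70 FPKM (984 reads) in irradiated cKO and 3.97 FPKM (381 reads) in irradiated WT, against 3.43 FPKM (375 reads) in steady-state cKO and 4.41 FPKM (497 reads) in steady-state WT. Irradiated cKO stood apart from the other 3 libraries. Rsad2 was 2.82-fold (2.50 to 3.19) higher in cKO. In WT the interval of the ratio held equal levels, and the direction turned with the scaling. The neighbouring Cmpk2, a nucleotide kinase 12.7 kb from Rsad2, had 7.01 to 9.13 FPKM across the libraries. Isg20, a 3′ to 5′ exonuclease, had 64.4 FPKM in irradiated cKO and 64.6 FPKM in irradiated WT, against 45.1 FPKM in steady-state cKO and 61.4 FPKM in steady-state WT, a difference of 0.50 in cKO and of 0.07 in WT, the WT one turning with the scaling. Bst2 had differences of 0.62 in cKO and 0.32 in WT, the WT one likewise turning with the scaling.

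The GTPases that attack vacuoles and intracellular pathogens, and Tap1, which carries peptides to MHC class I, were lower as a group, although the WT direction of Irgm1 turned with the scaling. In each genotype 7 of the 9 were at least 2-fold lower (77.8%), against 21.3% of all genes in cKO and 18.8% in WT. All 9 lay below the median of all genes in both genotypes. The group medians were −1.28 in cKO and −1.31 in WT, the lowest of the 5 role medians in each genotype. Gbp2, a guanylate-binding protein, had 4.39 FPKM in irradiated cKO and 2.96 FPKM in irradiated WT, against 19.9 FPKM in steady-state cKO and 19.5 FPKM in steady-state WT. It was 4.53-fold (3.96 to 5.20) lower in cKO and 6.6-fold (5.61 to 7.81) lower in WT. Its cluster neighbours on chromosome 3 were lower by less. Gbp3 had 3.76 FPKM in irradiated cKO and 3.22 FPKM in irradiated WT, against 10.4 FPKM in steady-state cKO and 11.2 FPKM in steady-state WT. Gbp7 had 7.46 FPKM in irradiated cKO and 7.83 FPKM in irradiated WT, against 20.1 FPKM in steady-state cKO and 17.4 FPKM in steady-state WT.

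Of the immunity-related GTPases, Iigp1 had 6.49 FPKM in irradiated cKO and 4.85 FPKM in irradiated WT, against 22.3 FPKM in steady-state cKO and 25.9 FPKM in steady-state WT, 3.44-fold (3.11 to 3.82) lower in cKO and 5.35-fold (4.76 to 6.02) lower in WT. Irgm2 had 1.71 FPKM in irradiated cKO and 2.01 FPKM in irradiated WT, against 9.09 FPKM in steady-state cKO and 8.43 FPKM in steady-state WT, 5.32-fold (4.46 to 6.38) lower in cKO and 4.2-fold (3.55 to 5.0) lower in WT. The adjacent Igtp, 7.38 kb away and with nearly the same promoter letters, had 17 FPKM in irradiated cKO and 18.2 FPKM in irradiated WT, against 42.7 FPKM in steady-state cKO and 46.5 FPKM in steady-state WT. It was 2.51-fold (2.31 to 2.72) lower in cKO and 2.56-fold (2.36 to 2.77) lower in WT, less than Irgm2 in each genotype. The intervals did not overlap, but they cover counting error only, and the 2 genes were not tested against each other. Tap1 had 8.03 FPKM in irradiated cKO and 9.35 FPKM in irradiated WT, against 19.5 FPKM in steady-state cKO and 19.7 FPKM in steady-state WT.

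The 2 genes of the group short of 2-fold on the log2 scale were Ifi47 and Irgm1. Ifi47, the most abundant of the group, had 31.1 FPKM in irradiated cKO and 35.4 FPKM in irradiated WT, against 63.1 FPKM in steady-state cKO and 69.2 FPKM in steady-state WT, with differences of −1.0 in cKO (under 2-fold before rounding) and −0.95 in WT. Irgm1, which directs autophagy, had 13.7 FPKM in irradiated cKO and 18.3 FPKM in irradiated WT, against 23.6 FPKM in steady-state cKO and 24.1 FPKM in steady-state WT. The Irgm1 difference was −0.74 in cKO, and the WT difference of −0.38 turned with the scaling.

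Among the other members, Ifi27l2a went farthest up. It encodes a small protein of the ISG12 family. It had 121 FPKM (1319 reads) in irradiated cKO and 75.2 FPKM (771 reads) in irradiated WT, against 15.7 FPKM (183 reads) in steady-state cKO and 28.3 FPKM (341 reads) in steady-state WT. Both irradiated libraries lay above both steady-state ones, and the level was 7.76-fold (6.64 to 9.10) higher after irradiation in cKO and 2.66-fold (2.34 to 3.03) higher in WT. Its annotated span overlaps that of Ifi27 over 6057 bases, so the level is uncertain where reads could belong to either gene. Ifi35, a partner of NMI, was also higher, with 39.0 FPKM in irradiated cKO and 53.8 FPKM in irradiated WT, against 31.3 FPKM in steady-state cKO and 30.5 FPKM in steady-state WT. Macrophage markers had median differences of 1.34 in cKO and −0.81 in WT after irradiation, and their part in the levels of Ifi27l2a, Ifit3 and Isg15 was not tested.

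Lower members of this group included Ifi44, with 1.5 FPKM in irradiated cKO and 0.803 FPKM in irradiated WT, against 5.96 FPKM in steady-state cKO and 5.25 FPKM in steady-state WT. Trim30a, a TRIM protein that limits NF-κB signalling, had 5.36 FPKM in irradiated cKO and 2.54 FPKM in irradiated WT, against 10.9 FPKM in steady-state cKO and 11.1 FPKM in steady-state WT. Dtx3l, a ubiquitin ligase, had 2.0 FPKM in irradiated cKO and 2.22 FPKM in irradiated WT, against 5.41 FPKM in steady-state cKO and 6.13 FPKM in steady-state WT. Ifi44 was 3.97-fold (3.42 to 4.62) lower in cKO and 6.54-fold (5.35 to 8.06) lower in WT. Trim30a was 2.03-fold (1.83 to 2.25) lower in cKO and 4.35-fold (3.8 to 5.01) lower in WT. Ly6e, Xaf1 and Parp9 had differences between −0.89 and −0.54, of which that of Ly6e in cKO turned with the scaling. The 16 members at least 2-fold lower in WT included 14 with a promoter window, of which 9 held an ISRE, 5 a GAS and 4 both. Among the other kept members, 20 had a window, of which 8 held an ISRE, 7 a GAS and 2 both.

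The second question was what loss of Twist1 went with at steady state. The members differed little, as did all genes. None of the 41 was at least 2-fold higher in steady-state cKO, against 0.748% of all genes, and none at least 2-fold lower, against 1.95%. Shares this low leave few calls in any 41 genes, so these counts do not set the members apart. At 1.5-fold, 0 were higher, against 2.2% of all genes. Lower at 1.5-fold were 2, Ifi27l2a and Zbp1, about the 4.98% of all genes. The median difference was −0.03, against 0.02 over all genes, with 25 members below that value and 16 above. Of the regulators, Irf1, Irf2, Irf9 and Usp18 differed by between −0.02 and 0.05, Irf7 by −0.16, a direction that turned with the scaling, and Stat2 by 0.30. Ifi27l2a was 1.81-fold (1.51 to 2.17) lower in steady-state cKO and Zbp1 1.67-fold (1.47 to 1.90) lower. Ifit3 was 1.62-fold (1.33 to 1.98) lower, with 3.66 FPKM in steady-state cKO and 5.92 FPKM in steady-state WT. Isg20 and Bst2 followed, with differences of −0.44 and −0.40. Markers of macrophages moved with these genes: 10 of 15 on the list were at least 2-fold lower in steady-state cKO, their summed level was 1519 FPKM in steady-state cKO against 2875 FPKM in steady-state WT, and none was at 0 in either library. Neutrophil markers went the other way, with a median of 0.92, 5 of 10 kept at least 2-fold higher, and a sum of 2723 FPKM in steady-state cKO against 1635 FPKM in steady-state WT. B and plasma cell markers had a median of −0.49 and erythroid markers of −0.54. The part of these lists in the differences of Ifi27l2a, Zbp1 and Ifit3 was not tested.

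The third question was the same comparison in irradiated cells, where most members lay above the median of all genes while few were far apart between genotypes. Of the 41 members, 1 was at least 2-fold higher in irradiated cKO, Rsad2 (2.44%, below the 3.73% of all genes), and 0 were at least 2-fold lower, against 0.782%. At 1.5-fold, 6 were higher, namely Rsad2, Trim30a, Ifi27l2a, Isg15, Zbp1 and Irf7, against 7.86% of all genes, and 0 were lower, against 15.3%. The median difference was 0.03, against −0.31 over all genes, and 38 of 41 members lay above that all-gene median. Over the scalings, pseudocounts, centring and level filters tried, the median of all genes moved between −0.45 and 0.00. The members' median less that of all genes lay between 0.14 and 0.42. Shares of genes past a fold limit can shift with the all-gene median. Scaled to the recovered reads, all genes had a median of −0.02, and 4 members were at least 2-fold higher. By median of ratios or by upper quartile that count stayed at 1, with all-gene medians of −0.23 and −0.29. Shares past 1.5-fold were not recounted on these scalings. By role, the median was highest for the antiviral effectors, at 0.28, with 11 of 11 above the median of all genes. The role medians were 0.09 for regulators, −0.05 for sensors, −0.09 for the GTPase and Tap1 group and −0.04 for the other members.

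Rsad2 had 9.70 FPKM in irradiated cKO against 3.97 FPKM in irradiated WT, 2.44-fold (2.16 to 2.75) higher. Trim30a followed at 2.10-fold (1.81 to 2.45) higher, Ifi44 at 1.87-fold (1.48 to 2.38), Zbp1 at 1.86-fold (1.54 to 2.27), Oasl2 at 1.78-fold (1.48 to 2.14), Ifi27l2a at 1.62-fold (1.48 to 1.77), Isg15 at 1.61-fold (1.43 to 1.82) and Irf7 at 1.53-fold (1.42 to 1.65). Ifi44 and Oasl2, at low levels, fell short of 1.5-fold on the log2(FPKM + 1) scale. The 6 members past 1.5-fold kept their direction in all 7 alternative scalings, pseudocounts and centrings, which could not have turned it. A pseudocount cannot change a sign, and each rescaling or centring tried raised this difference. Below the 1 FPKM limit, Oas2, which makes 2′-5′ oligoadenylates that activate RNase L, had 1.06 FPKM in irradiated cKO and 0.365 FPKM in irradiated WT, 2.91-fold (1.98 to 4.37) higher. Oas3 had 0.513 FPKM in irradiated cKO and 0.192 FPKM in irradiated WT, 2.68-fold (1.75 to 4.2) higher. Mx1, Mx2 and Parp14 were also at low levels, with 0.632, 0.165 and 0.591 FPKM in irradiated cKO against 0.347, 0.05 and 0.432 FPKM in irradiated WT. Mx2 rested on 14 reads in irradiated cKO and 4 in irradiated WT. At the other end were Ifi35 (−0.45), Irgm1 (−0.39) and Irf9 (−0.33), of which Irf9 turned with the scaling, as did Irf1 (−0.19), Tap1 (−0.20), Ifi47 (−0.18) and Igtp (−0.09).

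Markers of other cells moved with this difference. Macrophage markers summed to 2716 FPKM in irradiated cKO against 1393 FPKM in irradiated WT, with 14 of 15 at least 1.5-fold higher and none at 0. Neutrophil markers summed to 1339.6 FPKM in irradiated cKO against 440 FPKM in irradiated WT, with 9 of 10 kept markers at least 1.5-fold higher. All 7 kept markers of B and plasma cells and 7 of 9 of T and NK cells were also at least 1.5-fold higher. The list of plasmacytoid dendritic cells, the classical source of type I interferon, summed to 124 FPKM in irradiated cKO against 56.1 FPKM in irradiated WT, most of it from Ly6d, with 118 FPKM in irradiated cKO and 51.6 FPKM in irradiated WT. Of its 4 kept genes, 1 was at least 2-fold higher and all 4 lay above the median of all genes, while the defining marker Siglech had 0.0882 FPKM in irradiated cKO and 0.0934 FPKM in irradiated WT. The part of these cells in the higher levels of Rsad2, Isg15, Irf7 and Ifi27l2a was not tested.

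**Figure D3:**
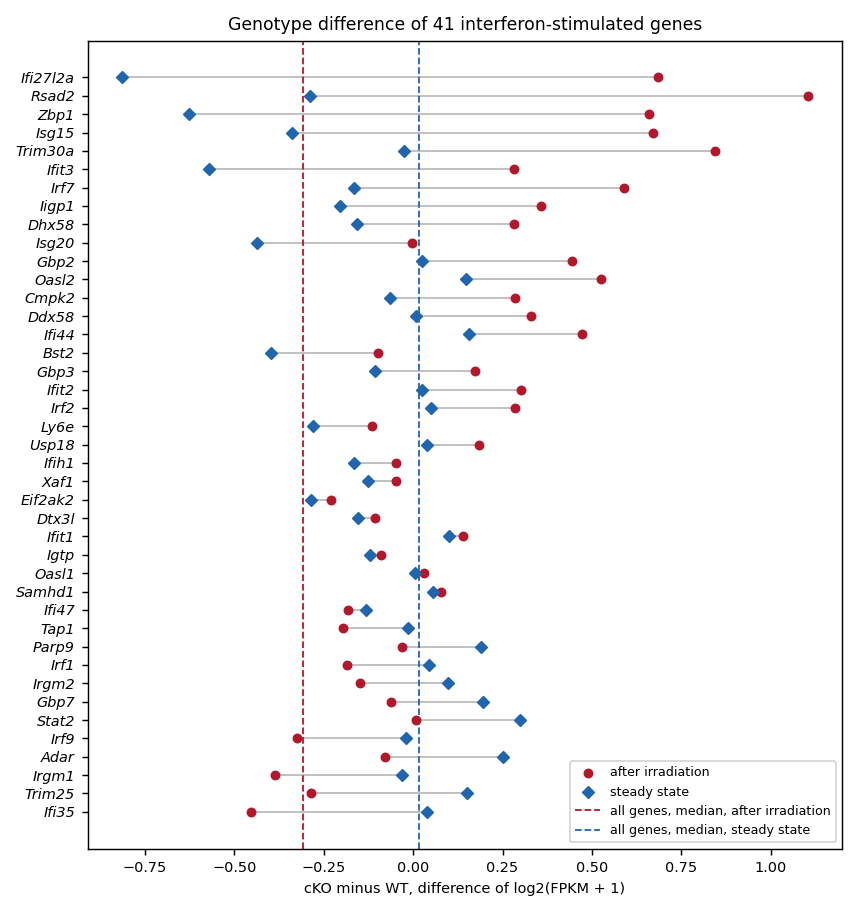
Genotype difference (cKO minus WT, log2(FPKM + 1)) of the 41 kept members after irradiation (circles) and at steady state (diamonds), ordered by the gap between them. Dashed lines are the medians of all genes: Ifi27l2a and Zbp1 lie to the left of 0 at steady state and to the right after irradiation, and Rsad2 reaches 1.10 after irradiation.

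Setting the genotype difference after irradiation against that at steady state, 4 members were at least 2-fold more positive after irradiation, against 5.72% of all genes, and 0 more negative, against 1.63%. At 1.5-fold on the authors' scaling, 7 were more positive, against 9.53% of all genes, and 0 more negative, against 17.4%. Those past 2-fold were Ifi27l2a (1.5), Rsad2 (1.39), Zbp1 (1.29) and Isg15 (1.01). The median over the 41 was 0.14, against −0.32 over all genes, and 37 of 41 lay above that of all genes. On the same scale the macrophage list had a median of 2.39, T and NK cells 1.99, erythroid cells 1.33 and B and plasma cells 1.23. The other marker lists ran from −0.18 for LT-HSCs to 0.65 for neutrophils. Ifit3 had 0.85 and Irf7 0.75. Irf1, by contrast, had −0.23, a value that turned with the scaling, and the abundant Ifi47 had −0.05, which turned as well.

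**Figure D4:**
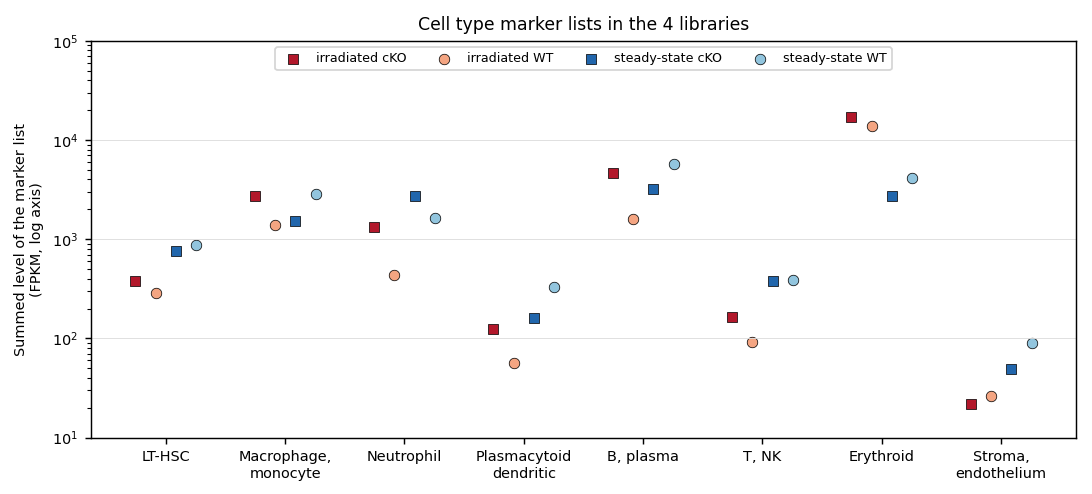
Summed level of each cell type marker list (FPKM, log axis) in the 4 libraries, 1 point per library. Macrophage and monocyte markers are at 2716 FPKM in irradiated cKO and 1393 FPKM in irradiated WT, and at 1519 FPKM in steady-state cKO and 2875 FPKM in steady-state WT.

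The rest of the pathway was read from lists of 96 further genes, of which 89 were matched. Of 9 interferon genes, 2 were matched and neither reached a mean of 1 FPKM. Ifng had 1.06 FPKM (30 reads) in irradiated cKO and 0.374 FPKM (10 reads) in irradiated WT, against 0.886 FPKM (27 reads) in steady-state cKO and 0.668 FPKM (21 reads) in steady-state WT. Ifna4 was seen with 4 reads in irradiated cKO and was at 0 reads in the other libraries. The Ifng ratio of irradiated cKO to irradiated WT was 2.83 (1.35 to 6.5).

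Genes of the receptors and their signalling were past 2-fold about as often as all genes. Of 8, 2 were at least 2-fold lower in irradiated cKO (25%, against 21.3% of all genes) and 1 in irradiated WT (12.5%, against 18.8%), and 0 were at least 2-fold higher in either. Ifnar1 had 2.45 FPKM in irradiated cKO and 1.93 FPKM in irradiated WT, against 7.89 FPKM in steady-state cKO and 6.94 FPKM in steady-state WT, differences of −1.37 in cKO and −1.44 in WT. Jak2, the kinase of the interferon gamma receptor, had differences of −1.26 in cKO and −0.82 in WT, and Ifnar2 of −0.68 in cKO and −0.82 in WT. The interferon gamma receptor gene Ifngr1 was on the other side, with 0.19 in cKO and 0.48 in WT, and Jak1 had −0.55 in cKO and 0.17 in WT. Of 10 kept adaptors and upstream factors, 1 was past 2-fold upward in cKO (10%, against 9.51% of all genes) and 1 downward (10%, against 21.3%). In WT 0 were past 2-fold upward, against 14.9% of all genes, and 1 downward (10%, against 18.8%). Tmem173, which encodes STING, the relay of the cytosolic DNA sensor, had 7.63 FPKM in irradiated cKO and 2.80 FPKM in irradiated WT, against 37.2 FPKM in steady-state cKO and 34.8 FPKM in steady-state WT. Its differences were −2.15 in cKO and −3.23 in WT, and its genotype difference after irradiation was 1.18. Irf8, a myeloid lineage factor, had a difference of 1.51 in cKO and −0.03 in WT. Irf5, a factor of myeloid and B cells, had a genotype difference of 1.01 after irradiation.

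Among 5 kept feedback genes, 3 were at least 2-fold lower in cKO (60%, against 21.3% of all genes) and 1 in WT (20%, against 18.8%). The 1 in WT was Socs3, which passed the minimum level only through the steady-state libraries. Socs3, an inhibitor of JAK–STAT signalling that is itself induced by cytokines, had 0.738 FPKM in irradiated cKO and 0.422 FPKM in irradiated WT, against 21.7 FPKM in steady-state cKO and 15.8 FPKM in steady-state WT, differences of −3.71 in cKO and −3.56 in WT. Pias1, an inhibitor of STAT signalling, had −1.25 in cKO and −0.91 in WT, and Ptpn6, the phosphatase SHP-1, −1.07 in cKO and −0.70 in WT. Of 11 MHC class I and immunoproteasome genes, 4 were at least 2-fold lower in each genotype (36.4%, against 21.3% of all genes in cKO and 18.8% in WT) and 0 higher, with medians of −0.83 in cKO and −0.91 in WT. Nlrc5, counted as lower in both genotypes, also passed the minimum only through the steady-state libraries. The class I heavy chain gene H2-K1 had 364 FPKM in irradiated cKO and 399 FPKM in irradiated WT, against 1020.2 FPKM in steady-state cKO and 1063 FPKM in steady-state WT. Its partner B2m had differences of −1.07 in cKO and −1.48 in WT, and Tap2, the partner of Tap1, −1.17 in cKO and −0.91 in WT.

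A further 40 kept interferon-stimulated genes outside the 46 were at least 2-fold lower about as often as all genes in cKO and more often in WT. In irradiated cKO 9 were lower (22.5%, against 21.3% of all genes) and 3 higher (7.5%, against 9.51%). In irradiated WT 14 were lower (35%, against 18.8%) and 3 higher (7.5%, against 14.9%), with medians of −0.54 in cKO and −0.76 in WT. Uba7, the activating enzyme for ISG15, had 1.77 FPKM in irradiated cKO and 1.72 FPKM in irradiated WT, against 17.3 FPKM in steady-state cKO and 15.1 FPKM in steady-state WT, while the levels of Isg15 itself were 42.7 FPKM in irradiated cKO and 26.5 FPKM in irradiated WT, against 17 FPKM in steady-state cKO and 21.8 FPKM in steady-state WT. Ifi203, of the PYHIN family, had differences of −2.33 in cKO and −2.65 in WT, and Tnfsf10, which encodes the death ligand TRAIL, −1.84 in cKO and −2.16 in WT. In the genotype comparison of irradiated cells these 40 genes had a median of 0.21, with 35 above the median of all genes. At 1.5-fold on the authors' scaling, 8 of the 40 were higher in cKO, against 7.86% of all genes. On the same scaling 0 were lower, against 15.3%. At steady state their median was 0.05, with 1 at least 1.5-fold higher, against 2.2% of all genes, and 3 lower, against 4.98%. LT-HSC markers had medians of −2.21 in cKO and −1.83 in WT after irradiation, and erythroid markers 2.58 in cKO and 1.79 in WT. The medians in cKO and WT were −0.05 and −1.81 for B and plasma cells, 0.20 and −1.27 for T and NK cells and −0.94 and −1.28 for neutrophils. They were −0.84 and −1.51 for plasmacytoid dendritic cells, −0.93 and −1.53 for stroma and endothelium and 1.34 and −0.81 for macrophages. The part of these cell-type differences in the lower levels of Irf1, the GTPases and Ifnar1 was not tested.

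**Figure D5:**
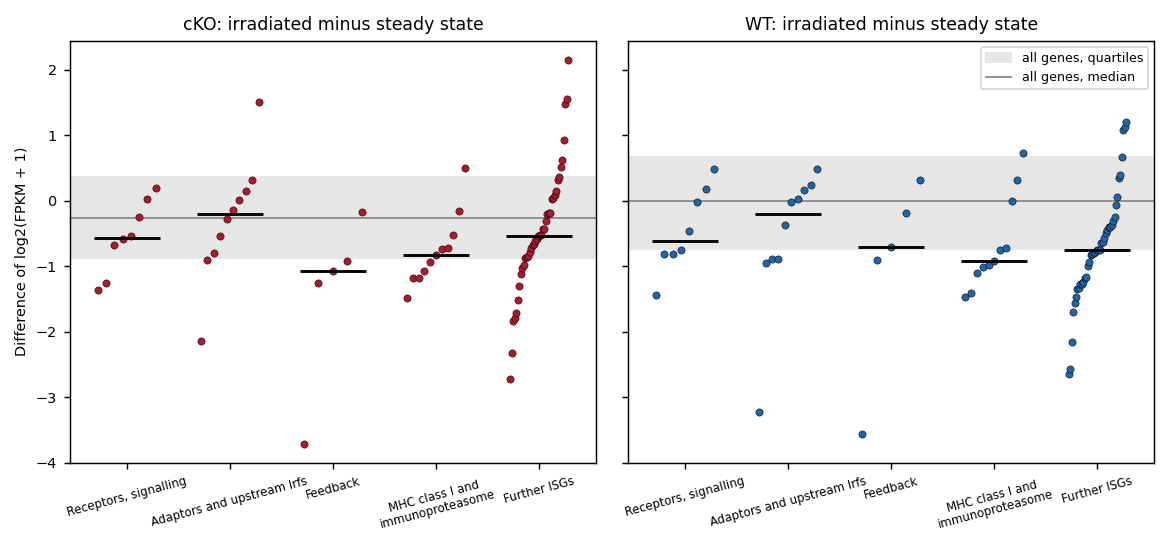
Difference between irradiated and steady-state cells (log2(FPKM + 1)) for kept genes of 5 pathway lists outside the 46 members, in cKO (left) and WT (right). Points are genes, bars are list medians and the grey band spans the quartiles of all genes. Socs3, kept only through its steady-state levels, lies at −3.71 in cKO and −3.56 in WT. Tmem173 lies at −2.15 in cKO and −3.23 in WT.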

How the data were processed

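RNA-seq values were taken from 4 deposited tables, 1 per library, of FPKM per gene as made by the authors. The build mm10 and the tools HOMER, MACS2 2.1.0, BWA 0.7.12-r1039 and Bowtie stand in the submitters' processing notes, with no role or assay. The sources used here do not say which tool counted the reads or whether strand was used. Of 30409 Ensembl identifiers, 30231 received a symbol, and positions are from RefSeq annotation of GRCm38.p6, the build mm10. The members and lists were chosen with earlier results of these data known.

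Differences were taken on log2(FPKM + 1), over 11505 genes with a mean of at least 1 FPKM. A gene, in a list or not, could pass this minimum only through the libraries in which it was high. A gene counted as apart at 2-fold, or at 1.5-fold as a second rule. Each group held 1 library, so no p-value is given. Values in every library are given for members at least 2-fold apart in any of 4 comparisons and for the 3 most abundant of each role. Up to 3 genes are named per pathway list, those with the largest difference. Ifng, Ifna4, Ifngr1, Jak1, Nlrc5, Hlf, Gfi1b, Ly6d, Ddx3y, Siglech, Twist1 and members below 1 FPKM were named outside this rule after their values were seen. Whole reads were worked back from the FPKM for all 30409 genes (475 were at 0 in every library), with library sizes of 23450734 in irradiated cKO, 22146433 in irradiated WT, 25239648 in steady-state cKO and 26031985 in steady-state WT. These sizes are 1.15, 0.895, 1.14 and 1.04 times the reads recovered in genes, in the same order, so FPKM in irradiated WT is high relative to its gene reads. Reads gave exact binomial intervals of ratios. Procedures were tested on simulated data, where reads were recovered exactly for 96.6% of kept genes. At the 2-fold limit, 100 of 100 genes raised 4-fold, 1 of 100 raised 1.5-fold and 21 unchanged genes among those kept were called. Only calls of higher genes in steady-state cKO against steady-state WT were simulated, with counting error alone. Differences between animals or sorts were not simulated, so the 21 do not measure false calls in the real libraries. Python 3.11.15, pandas 2.3.3, numpy 2.4.6 and scipy 1.17.1 were used.

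Alternatives were pseudocounts of 0.1 and 5, no minimum level, 5 FPKM in the higher library, scaling by median of ratios, by upper quartile and without the 50 most abundant genes, centring on all genes, a 1.5-fold limit and, added after the data were seen, recovered read totals.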

Additional observations from a re-analysis of the deposited data

Results flagged for a closer look

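Ifi27l2a and Zbp1 had genotype differences of opposite sign in the 2 conditions, each past 1.5-fold. Ifi27l2a was 0.68 higher in irradiated cKO than in irradiated WT, while at steady state its cKO difference was −0.81, a difference of differences of 1.5. Zbp1 was 0.66 higher in irradiated cKO than in irradiated WT, while at steady state its cKO difference was −0.63, a difference of differences of 1.29. With 1 library per group these differences between conditions were not tested. Macrophage markers had the same signs, with medians of 0.97 after irradiation and −1.35 at steady state. So did the lists of T and NK cells (1.57 and −0.24), B and plasma cells (0.86 and −0.49), erythroid cells (0.85 and −0.54) and plasmacytoid dendritic cells (0.15 and −0.10). Neutrophils (1.43 and 0.92), LT-HSCs (−0.07 and 0.16) and stroma and endothelium (−0.17 and −0.45) did not. The part of these lists in either gene was not tested.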

How the results depend on the processing

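Over 10 alternatives and 13 results, 102 of 125 values were labelled close to those reported and 23 moved. A count was close if equal to the reported one or within 1.5-fold of it, so a 0 that stayed 0 was close. A median was close if inside an interval from the spread of the 41 members, taken as independent. These limits are wide. In irradiated against steady-state WT, a median of −0.36 by upper quartile was labelled close to −0.79. So were 11 lower members by upper quartile and 22 without the 50 most abundant genes, against 16. Medians near 0 changed sign under some alternatives. In irradiated cKO against irradiated WT, members at least 2-fold higher numbered 1, and 2 with a pseudocount of 0.1, 0 with a pseudocount of 5, 4 without the 50 most abundant genes, 2 when centred, 4 with recovered read totals and 6 at 1.5-fold. In irradiated against steady-state WT, members 2-fold higher numbered 1, and 2 with a pseudocount of 0.1, 2 by median of ratios, 4 by upper quartile and 4 at 1.5-fold, and the 16 lower ones became 7 with a pseudocount of 5. In irradiated against steady-state cKO the 6 higher ones became 3 with a pseudocount of 5, and the 16 lower ones 8 with a pseudocount of 5, 7 by upper quartile and 9 when centred. Members lower in steady-state cKO than in steady-state WT numbered 0 at 2-fold and 2 at 1.5-fold. The median genotype difference at steady state, −0.03, became 0.16 without the 50 most abundant genes and 0.10 with recovered read totals. That after irradiation, 0.03, became −0.03 with the filter of 5 FPKM in the higher library, 0.38 without the 50 most abundant genes, 0.34 when centred and 0.35 with recovered read totals. The median difference of differences, 0.14, became 0.47 when centred and 0.34 with recovered read totals. The causes were not tested. The direction of single members held in every setting for 36 of 46 between irradiated and steady-state cKO, 33 between irradiated and steady-state WT, 29 between irradiated cKO and irradiated WT and 31 between steady-state cKO and steady-state WT. No paired analysis was possible because each group holds 1 library.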
